A study of Homo sapiens with 12 samples.

Results

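The genes described here were 39 listed genes of glycolysis and of the transcriptional response to hypoxia, measured by RNA-seq among the 54127 genes of the count tables. They were taken by name from a list of the pathway's genes, which was drawn up with earlier results of these data known. C4-2 cells, an androgen-responsive prostate cancer line derived from LNCaP, were grown in RPMI medium with 10% FBS and exposed for 6 h to DMSO (vehicle) or to 1 µM PBKi. PBKi is HI-TOPK-032 (TOPK-32 in the labels), a small molecule inhibitor of the PDZ binding kinase PBK, also called TOPK. Each group had 6 libraries of this single line, and the labels name no other agent or genetic change in either group. Of the 39 genes, 38 had an identifier in the files and 35 had enough reads for testing. The comparison asked which transcripts changed when the kinase was inhibited.

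Glycolysis splits glucose into pyruvate in a chain of cytosolic enzymes and yields ATP without oxygen. Lactate dehydrogenase then turns pyruvate into lactate, which leaves the cell through monocarboxylate transporters, while pyruvate dehydrogenase sends pyruvate into the mitochondria. In oxygen, the prolyl hydroxylases EGLN1, EGLN2 and EGLN3 mark the HIF alpha subunits for VHL and the proteasome. When oxygen is short the subunits accumulate and bind a short DNA core, ACGTG or GCGTG, near many glycolytic genes and near genes of vessel growth, mitophagy and collagen modification. HIF activity is set largely by protein stability, so a transcript level of HIF1A is not a measure of HIF protein.

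Of the 35 genes tested, 24 were lower and 2 were higher in PBKi at an adjusted p under 0.05 (edgeR quasi-likelihood test with Benjamini-Hochberg adjustment over 14505 genes), and 9 did not pass. Across all genes tested, 21.5% were called lower and 20.1% higher. The median log2 fold change was -0.31 over these 35 genes and -0.01 over all genes tested. Among the 23 genes from glucose entry to lactate export, 19 were lower, none was higher and 4 did not pass, with a median of -0.40. The 12 tested genes of oxygen sensing and of the wider hypoxia response were mixed, with 5 lower, 2 higher and 5 not past the threshold, and a median of -0.10. A fall of at least 0.5 on the log2 scale was called for 10 of the 35 genes, against 4.32% of all genes tested. Every PBKi library lay below every DMSO library for 13 of the 35 genes, against 9.68% of all genes tested, and above for 1 gene, against 10.5%. The p-values measure the spread between these samples, which may be technical, since the sources used here do not say whether the 6 libraries came from separate cultures.

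**Figure D1:**
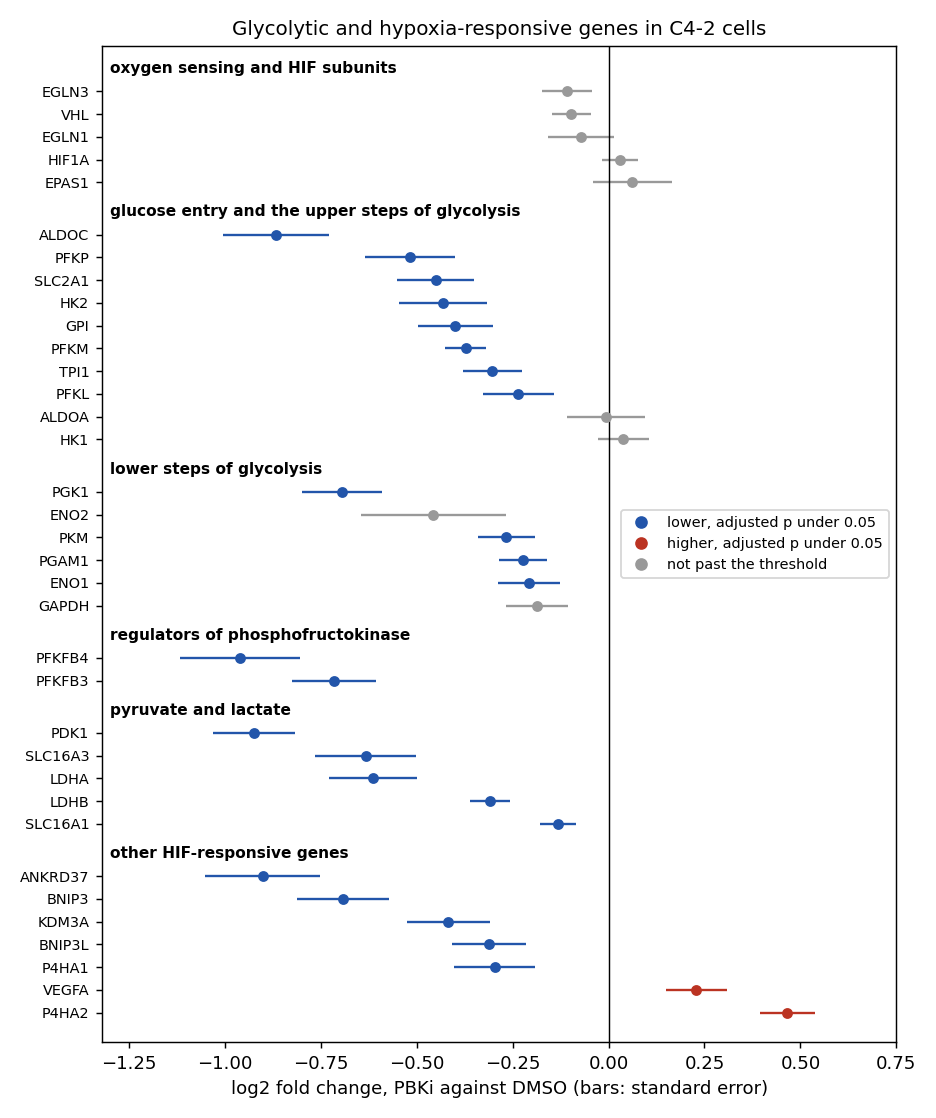
The log2 fold change of PBKi against DMSO (horizontal axis) is plotted with its standard error for the 35 tested genes, in blocks by role (vertical axis), from 6 libraries per group. Blue points (24 genes) were called lower, red points (P4HA2 and VEGFA) higher and grey points (9 genes) neither, and the 5 genes of oxygen sensing lie between -0.11 and 0.06.

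The libraries held between 9663203 and 28029908 reads on genes in DMSO and between 13122415 and 22817803 in PBKi. Levels are CPM, the share of a library's reads on a gene after TMM scaling. DMSO replicate 5 had 3 sequencing lanes and every other library 4. PBKi replicates 3 and 6 had 9.30% and 8.83% of uniquely aligned reads outside annotated genes, against 5.74% to 6.96% in DMSO. The luminal identity of the line was present in every library, as 9 luminal markers summed to between 5090 and 6010 CPM in DMSO and between 2820 and 3730 CPM in PBKi, with KLK3, the prostate specific antigen and an androgen target, the largest of them. The sums of basal (4 genes, 1.33 to 1.84 against 0.813 to 1.61 CPM), fibroblast (5 genes, 21.1 to 25.5 against 19.0 to 24.4 CPM) and endothelial markers (3 matched genes, 4.03 to 7.25 against 3.09 to 4.63 CPM) overlapped between groups. The sum of 6 immune markers moved from between 2.77 and 4.70 CPM to between 5.24 and 6.38 CPM, of which CD68 was the largest part, while the leukocyte marker PTPRC had 0 to 3 reads and the T cell marker CD3E 0 or 1 read in any library. The myeloid marker LYZ had 0 reads in every DMSO library and 1 to 6 in PBKi, while the myeloid marker CD14 had means of 0.258 and 0.215 CPM. The basal keratin KRT5 had 0 reads in every DMSO library and 2 to 7 in PBKi. KRT14, the basal keratin with the most reads, fell instead, from a mean of 1.40 to 0.829 CPM (log2 fold change -0.73, adjusted p = 0.0126, edgeR). Of the other tested markers in the overlapping sums, VWF (-0.50) and PDGFRB (-0.39) were called lower and COL1A1 was not called. The part of these marker shifts in the results was not tested. In bulk RNA, fewer cells of a type and less RNA per cell cannot be told apart.

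The promoters give a view of these genes that the counts did not use. The 250 bases before the gene's start were read for 35 of the 39 genes from RefSeq windows (assembly GRCh38.p14), which do not list VHL, VEGFA, SLC16A1 and BNIP3L. Each gene had a single window at a single listed start, so cores near any other start of a gene were not searched. Both strands were searched for the letters ACGTG and GCGTG, and for CACGTG, the E-box, which holds ACGTG on each strand and so counts as a match on each. ACGTG was present in 15 of the 35 promoters (42.9%) and in 18.7% of all 27305 promoters of this length. GCGTG was present in 12 of the 35 (34.3%) and in 31.9% of all. Either core was found in 23 of the 35 (65.7%) and in 43.1% of all promoters. The E-box was present in 6 of the 35 (17.1%) and in 6.49% of all promoters. The promoters of all genes were not matched to the 35 for base content or expression level. Each of these motifs holds the letters CG, so the shares also depend on base content. By response, the windows with either core were 13 of the 22 matched genes called lower and 6 of the 8 that did not pass, and P4HA2, which rose, had none. A match is a description of letters and not a bound site, and the list was assembled from genes known for their response to hypoxia.

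The windows of 5 genes that fell by at least 0.5 on the log2 scale hold 3 or more core matches and are shown with each core in capitals. Beside them is PDK1, which fell by 0.92 and has none in the window read. Of the other 4 genes with such a fall, PFKP and SLC16A3 also have none, and PFKFB3 and PFKFB4 have 1 each. LDHA has 5 matches at chr11:18394313-18394562 on the plus strand, in 2 E-boxes and a separate ACGTG. BNIP3 has 6 at chr10:131981924-131982173 on the minus strand and ALDOC has 5 at chr17:28576896-28577145 on the minus strand, while PGK1 has 3 at chrX:78103998-78104247 on the plus strand and ANKRD37 has 3 at chr4:185396591-185396840 on the plus strand. The PDK1 window is chr2:172555123-172555372 on the plus strand. Coordinates are of GRCh38.p14 and each sequence reads 5′ to 3′ on the strand of the gene. CACGT and CACGC in capitals are the same cores read on the opposite strand.
LDHA: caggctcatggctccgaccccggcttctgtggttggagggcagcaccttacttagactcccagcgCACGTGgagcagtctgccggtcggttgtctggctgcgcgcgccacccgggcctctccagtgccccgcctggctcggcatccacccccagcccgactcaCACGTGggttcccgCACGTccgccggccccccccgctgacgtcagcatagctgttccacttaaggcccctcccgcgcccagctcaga
BNIP3: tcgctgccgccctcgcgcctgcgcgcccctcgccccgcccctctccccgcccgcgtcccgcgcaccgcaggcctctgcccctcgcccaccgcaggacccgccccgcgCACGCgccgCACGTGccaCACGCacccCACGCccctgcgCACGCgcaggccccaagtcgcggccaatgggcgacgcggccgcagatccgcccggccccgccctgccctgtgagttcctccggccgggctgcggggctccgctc
ALDOC: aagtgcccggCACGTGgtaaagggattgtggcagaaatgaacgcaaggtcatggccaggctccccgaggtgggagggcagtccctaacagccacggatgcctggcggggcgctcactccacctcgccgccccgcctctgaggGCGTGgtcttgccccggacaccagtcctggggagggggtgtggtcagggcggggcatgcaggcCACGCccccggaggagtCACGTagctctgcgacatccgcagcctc
PGK1: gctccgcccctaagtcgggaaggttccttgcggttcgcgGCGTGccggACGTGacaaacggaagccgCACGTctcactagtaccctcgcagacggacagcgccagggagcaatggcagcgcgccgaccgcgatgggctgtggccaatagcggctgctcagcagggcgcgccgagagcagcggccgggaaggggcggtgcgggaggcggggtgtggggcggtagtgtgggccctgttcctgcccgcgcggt
ANKRD37: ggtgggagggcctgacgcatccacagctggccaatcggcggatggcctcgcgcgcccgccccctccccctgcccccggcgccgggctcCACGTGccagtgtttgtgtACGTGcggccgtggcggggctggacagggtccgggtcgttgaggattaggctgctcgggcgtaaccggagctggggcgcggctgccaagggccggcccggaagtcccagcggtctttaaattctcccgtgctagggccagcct
PDK1: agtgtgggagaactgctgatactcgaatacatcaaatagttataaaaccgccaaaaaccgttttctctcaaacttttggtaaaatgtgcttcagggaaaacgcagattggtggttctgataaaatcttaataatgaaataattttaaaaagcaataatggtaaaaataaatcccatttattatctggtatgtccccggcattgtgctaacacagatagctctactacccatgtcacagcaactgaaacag

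The 5 tested genes of oxygen sensing, HIF alpha subunits included, did not pass the test. Their log2 fold changes lay between -0.11 and 0.06. The identifier that covers EGLN2 is not among these 5 and was called higher, as given below. HIF1A (ENSG00000100644, chr14:62162231-62214977, plus strand of GRCh37), the widely expressed HIF alpha subunit, had 146.7 CPM in the lowest, 152.2 in the median and 169.1 in the highest DMSO library, and 154.9, 159.2 and 162.4 CPM in PBKi. The PBKi libraries lay wholly inside the DMSO range. The log2 fold change of HIF1A was 0.03 with a standard error of 0.046 (adjusted p = 0.628, edgeR). EPAS1 (ENSG00000116016, chr2:46520806-46613836, plus strand), which encodes HIF-2α, was expressed at a far lower level, with 6.17, 7.79 and 9.82 CPM in DMSO and 7.29, 8.22 and 9.12 CPM in PBKi. Its log2 fold change was 0.06 with a standard error of 0.104 (adjusted p = 0.664, edgeR). Per kilobase of exon, the mean DMSO level was 30.2 CPM for HIF1A and 1.09 CPM for EPAS1, and the ratio of EPAS1 to HIF1A was 0.02 higher in PBKi on the log2 scale (exact two-sided permutation p = 0.794).

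Of the enzymes that mark HIF for decay, EGLN1, the main oxygen sensor of most cells, had a log2 fold change of -0.07 (adjusted p = 0.528) and EGLN3, itself a hypoxia-inducible gene, of -0.11 (adjusted p = 0.195). VHL, the substrate receptor of the ubiquitin ligase, had -0.10 (adjusted p = 0.134), with DMSO libraries from 118.0 to 141.2 CPM and PBKi libraries from 115.3 to 125.5 CPM, while the exact two-sided permutation test of this gene alone gave p = 0.0303. EGLN2 matched no identifier by its symbol. The identifier that covers it in the files, ENSG00000171570, is named RAB4B-EGLN2 and spans the neighbouring RAB4B as well (chr19:41284147-41314323 of GRCh37, plus strand) in the annotation used here. The authors counted with an older annotation, whose extent of this identifier was not examined here, so its reads may be those of EGLN2 alone or of both genes. That locus had 30.2 ± 4.17 CPM (SD, n = 6) in DMSO and 38.3 ± 1.43 CPM in PBKi, a log2 fold change of 0.36 with a standard error of 0.073 (adjusted p = 8.34e-04, edgeR), and it is not counted among the 35 genes.

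Glucose entry and the upper steps of glycolysis, which turn glucose into a pair of triose phosphates, held 10 genes, of which 8 were lower and 2 did not pass. SLC2A1, the glucose transporter GLUT1, fell by 0.45 on the log2 scale (adjusted p = 0.00151, edgeR), from a median of 108.4 to 79.0 CPM. Of the hexokinases, which trap glucose as its phosphate, HK2 fell by 0.43 (adjusted p = 0.00604) and HK1 had a log2 fold change of 0.04 (adjusted p = 0.676). GPI, the isomerase after hexokinase, fell by 0.40 and TPI1, which interconverts the triose phosphates, by 0.30. All 3 phosphofructokinase genes, the committed step of the pathway, were lower, at -0.24 for the liver type PFKL, -0.37 for the muscle type PFKM and -0.52 for the platelet type PFKP. PFKP (ENSG00000067057, chr10:3108525-3179910, plus strand) had 191.4, 237.9 and 283.4 CPM in the lowest, median and highest DMSO library and 116.5, 168.1 and 194.2 CPM in PBKi (standard error 0.117, adjusted p = 0.00185). Only the highest PBKi library reached into the DMSO range for PFKP. PFKL was called by a narrow margin (adjusted p = 0.0490, edgeR), lost its call in 10 of the 12 fits without a single sample (all except those without DMSO replicate 2 or 3) and had a log2 fold change of -0.14 without DMSO replicate 5.

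The aldolases, which cleave fructose bisphosphate, parted most clearly. ALDOC (ENSG00000109107, chr17:26900133-26903966, minus strand) had 70.7, 99.3 and 109.9 CPM in DMSO and 33.0, 51.9 and 66.6 CPM in PBKi, with every PBKi library below every DMSO library. Its log2 fold change was -0.87 with a standard error of 0.139 (adjusted p = 8.67e-05, edgeR). ALDOA, the ubiquitous aldolase, had 1014 CPM in the median DMSO library and 1008 CPM in the median PBKi library (log2 fold change -0.01, adjusted p = 0.961).

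In the lower steps, which recover ATP on the way to pyruvate, 4 of 6 genes were lower and all 6 log2 fold changes were negative. PGK1 (ENSG00000102144, chrX:77166236-77384792, plus strand), the kinase of the ATP-yielding step after GAPDH, had the largest fall of this block. The lowest, median and highest libraries had 1202, 1540 and 1744 CPM in DMSO and 669.9, 961.9 and 1061 CPM in PBKi, without overlap. The log2 fold change was -0.69 with a standard error of 0.105 (adjusted p = 4.62e-05, edgeR). PKM, pyruvate kinase, fell by 0.27 without overlap between groups (adjusted p = 0.00847), PGAM1, phosphoglycerate mutase, by 0.22 (adjusted p = 0.00790) and the enolase ENO1 by 0.21 (adjusted p = 0.0471). The ENO1 call was lost in 10 of the 12 fits without a single sample, all except those without DMSO replicate 2 or 3. GAPDH, the triose phosphate dehydrogenase, had a log2 fold change of -0.19 (adjusted p = 0.0700), and ENO2, the neuronal enolase, of -0.46 (adjusted p = 0.0614). Both passed the threshold in the fits without DMSO replicate 2 or without DMSO replicate 3.

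Several of these genes are among the most abundant transcripts of the cell. Per kilobase of exon, the mean DMSO level of GAPDH was 1347 CPM, rank 4 of 14013 genes, and that of ENO1 611 CPM, rank 24. LDHB followed at 411.7 CPM (rank 44), TPI1 at 317.5 (rank 65), PGK1 at 276.6 (rank 81), ALDOA at 266.2 (rank 94) and LDHA at 235.1 (rank 113). Together the 23 glycolysis genes took 17410 ± 1674 CPM (SD, n = 6) of the DMSO libraries and 14090 ± 1371 CPM of the PBKi libraries, and the ranges met at 15250 CPM. Without GAPDH and ENO1 the other 21 genes summed to 11000.0 ± 928 CPM in DMSO, never below 9690, and to 8497 ± 920 CPM in PBKi, never above 9253. Neither sum was among the planned results, and of the genes set aside GAPDH was not called and ENO1 was called by a narrow margin. Of the 23 genes, 19 were already called lower one by one, so the sums describe share of reads and are not separate evidence. Reads with multiple alignments were not counted by the authors, and the annotation holds 65 pseudogenes named after GAPDH, 44 after BNIP3, 13 after PGAM1 and 6 after LDHA, so the levels of these genes against others are uncertain.

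The bifunctional enzymes that set the level of the fructose phosphate that is the allosteric activator of phosphofructokinase, were among the genes with the largest falls. PFKFB4 (ENSG00000114268, chr3:48555117-48599448, minus strand) had 23.8, 33.1 and 40.1 CPM in DMSO and 10.1, 16.8 and 23.5 CPM in PBKi. The groups differed by a log2 fold change of -0.96 with a standard error of 0.156 (adjusted p = 1.00e-04, edgeR), the largest fall of the 35 genes, or 48.6% less transcript. PFKFB3 (ENSG00000170525, chr10:6186897-6296607, plus strand), the isoform with the highest kinase activity, had 51.8, 62.8 and 79.8 CPM in DMSO and 29.5, 40.5 and 46.1 CPM in PBKi, a log2 fold change of -0.72 with a standard error of 0.109 (adjusted p = 5.21e-05). For both genes the groups did not overlap. A further isoform outside the 39 genes, PFKFB2, went the other way, from 56.6 to 72.5 CPM (log2 fold change 0.36, adjusted p = 3.58e-05), and is named here after its values were seen.

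At the branch where pyruvate becomes lactate or enters the mitochondria, all 5 genes were lower and none of the 5 overlapped between the groups. PDK1 (ENSG00000152256, chr2:173420101-173473397, plus strand), a kinase that switches pyruvate dehydrogenase off, had 71.3, 93.1 and 104.1 CPM in DMSO and 34.1, 49.1 and 57.4 CPM in PBKi. Its log2 fold change of -0.92 with a standard error of 0.108 had the smallest adjusted p of the 35 genes (2.94e-06, edgeR). LDHA (ENSG00000134333, chr11:18416107-18429972, plus strand), the lactate dehydrogenase subunit that favours lactate formation, had 1224, 1434 and 1638 CPM in DMSO and 587.5, 959.4 and 1089 CPM in PBKi (log2 fold change -0.61, standard error 0.115, adjusted p = 3.80e-04). PBKi replicate 3 was the lowest library for LDHA, and the next had 940.1 CPM. SLC16A3 (ENSG00000141526, chr17:80175810-80219005, plus strand), the lactate exporter MCT4, had 81.9, 94.0 and 129.1 CPM in DMSO and 39.7, 68.4 and 75.5 CPM in PBKi (log2 fold change -0.63, standard error 0.131, adjusted p = 8.97e-04). LDHB, the heart type lactate dehydrogenase subunit, fell by 0.31 (adjusted p = 1.40e-04). SLC16A1, the transporter MCT1, fell by 0.13 (adjusted p = 0.0307), a call lost in 10 of the 12 fits without a single sample, all except those without DMSO replicate 3 or 5.

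**Figure D2:**
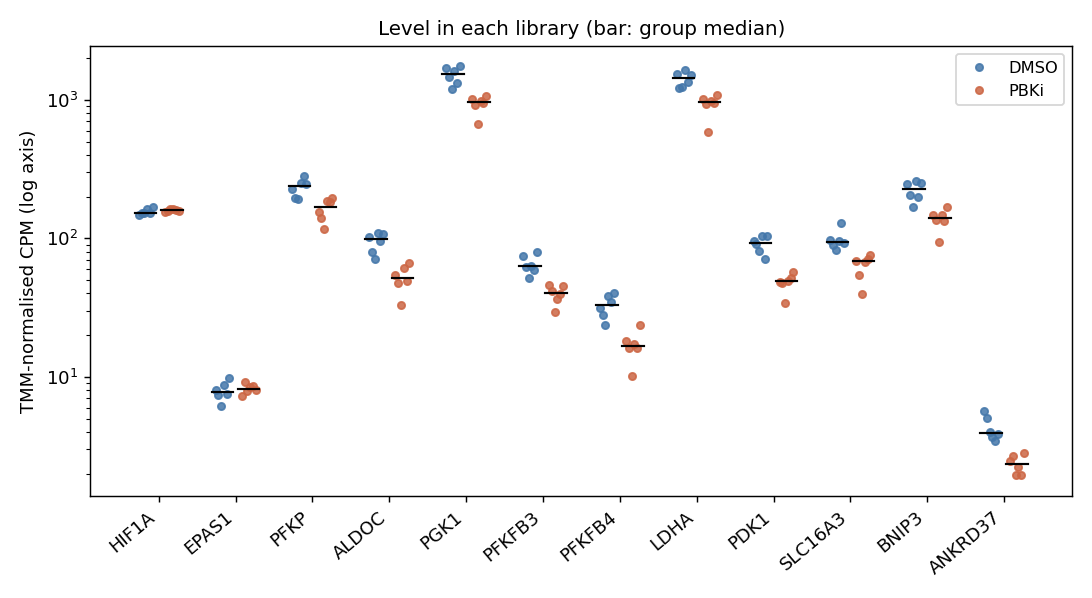
TMM-normalised CPM (vertical log axis) of each library is plotted for HIF1A, EPAS1 and the 10 genes called lower by at least 0.5 on the log2 scale, with DMSO in blue, PBKi in orange, 6 points per group and a bar at the group median. HIF1A and EPAS1 overlap fully, PFKP overlaps at the edge, and the other 9 genes are separated.

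The 10 other HIF-responsive genes held 5 that were lower, 2 that were higher and 3 with too few reads to test. BNIP3 (ENSG00000176171, chr10:133781188-133795471, minus strand), a mitophagy receptor, had 168.2, 225.7 and 258.5 CPM in DMSO and 93.4, 141.3 and 167.5 CPM in PBKi, a log2 fold change of -0.69 with a standard error of 0.121 (adjusted p = 1.99e-04, edgeR). ANKRD37 (ENSG00000186352, chr4:186317175-186321782, plus strand), an ankyrin repeat gene known as a direct HIF target, was low in level, with 3.46, 3.93 and 5.71 CPM in DMSO and 1.95, 2.36 and 2.81 CPM in PBKi, from 32 to 119 and 29 to 50 reads. Its log2 fold change was -0.90 with a standard error of 0.151 (adjusted p = 1.33e-04). Neither gene overlapped between the groups. KDM3A, a histone demethylase, fell by 0.42 (adjusted p = 0.00478), BNIP3L, the paralog of BNIP3, by 0.31 (adjusted p = 0.0153) and P4HA1, a catalytic subunit of collagen prolyl hydroxylase, by 0.30 (adjusted p = 0.0308). The BNIP3L call was lost without PBKi replicate 3. The P4HA1 call was lost in 7 of the 12 fits without a single sample, namely DMSO replicates 1, 4 and 6 and PBKi replicates 2, 3, 4 and 5.

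The genes that rose were P4HA2 and VEGFA. P4HA2, the other catalytic subunit gene of collagen prolyl hydroxylase (ENSG00000072682, chr5:131525840-131631008, minus strand), had 24.3, 27.2 and 31.9 CPM in DMSO and 34.6, 37.5 and 40.8 CPM in PBKi, with every PBKi library above every DMSO library. The log2 fold change was 0.47 with a standard error of 0.073 (adjusted p = 6.71e-05, edgeR), or 38.1% more transcript. VEGFA, the main growth factor of vessel endothelium, had 122.5, 139.6 and 162.9 CPM in DMSO and 141.5, 168.8 and 182.6 CPM in PBKi (log2 fold change 0.23, standard error 0.079, adjusted p = 0.0273). The VEGFA groups overlapped, the fit of replicates 1 to 3 alone gave 0.39 and that of replicates 4 to 6 alone 0.08, and its call was lost without DMSO replicate 3 or 5 or PBKi replicate 2, 3 or 6. The genes too low to test included CA9, the cell surface carbonic anhydrase often used as a marker of hypoxia, with 6 to 18 reads per DMSO library and 0 to 5 per PBKi library. ADM, the vasodilator peptide adrenomedullin, had 1 to 8 and 3 to 8 reads, and ANGPTL4, an inhibitor of lipoprotein lipase, had 2 to 19 and 3 to 8 reads.

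Ratios within families show whether related genes kept their proportion, and they do not depend on how libraries were scaled. Of 13 listed pairs, 12 could be computed and 7 passed (exact two-sided permutation test over every division of the libraries into 6 and 6, adjusted over the 12 pairs). In 4 pairs the groups did not overlap at all, and each had p = 0.00216, the smallest these permutations can give, and an adjusted p = 0.00649. The mean ratio of ALDOA to ALDOC went from 10.8 to 19.8, a log2 difference of 0.88. P4HA1 to P4HA2 went from 5.46 to 3.23 (log2 difference -0.76). SLC16A3 to SLC16A1 had a log2 difference of -0.52 and BNIP3 to BNIP3L of -0.40. ALDOC, SLC16A3 and BNIP3 were the members of these pairs with the larger falls, and P4HA2 rose while P4HA1 fell.

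The other 3 pairs that passed overlapped between groups. HK2 to HK1 went from 0.653 to 0.470 (log2 difference -0.47, adjusted exact permutation p = 0.0104), and HK2 is the hexokinase known as inducible. PFKP to PFKL differed by -0.30 (adjusted exact permutation p = 0.0130). LDHA to LDHB went from 1.15 to 0.918, a difference of -0.32 (adjusted exact permutation p = 0.0408), and this call was lost in 9 of the 12 tests without a single sample, all except those without DMSO replicate 2 or 3 or PBKi replicate 6. The pairs that did not pass were PFKM to PFKL (-0.15), ENO1 to ENO2 (0.21), PFKFB3 to PFKFB4 (0.26), EPAS1 to HIF1A (0.02) and EGLN3 to EGLN1 (-0.05). PFKM to PFKL passed without DMSO replicate 5, and PFKFB3 to PFKFB4 passed without PBKi replicate 6.

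**Figure D3:**
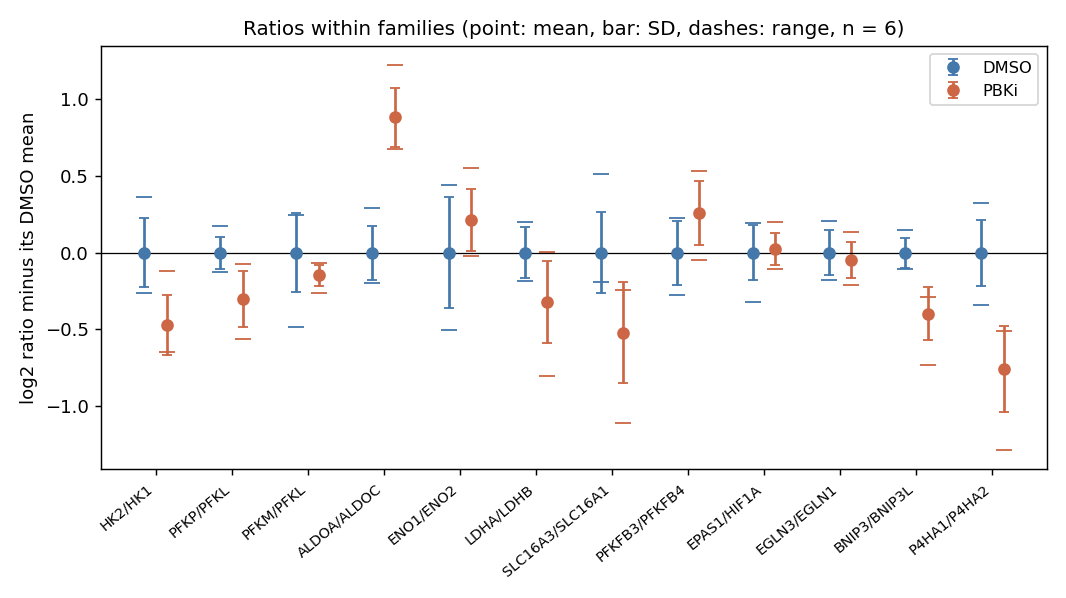
The log2 ratio of the counts of 2 family members, minus its mean in DMSO (vertical axis), is plotted for the 12 pairs (horizontal axis), with the mean as a point, the SD as a bar and the range as dashes, for 6 DMSO (blue) and 6 PBKi (orange) libraries. ALDOA to ALDOC rose by 0.88, while P4HA1 to P4HA2, SLC16A3 to SLC16A1 and BNIP3 to BNIP3L fell without overlap between the groups.

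Within each group, the same libraries were often the lowest or highest for these genes. PBKi replicate 3 was the lowest PBKi library for 23 of the 24 genes called lower, and PBKi replicate 6 was the highest for 15. Among DMSO libraries, replicate 3 was the lowest for 13 of the 24 genes, replicate 6 the highest for 9 and replicate 5 the highest for 7. The median log2 deviation of the 24 genes from the DMSO mean lay between -0.75 in PBKi replicate 3 and -0.25 in PBKi replicate 6, and between -0.25 in DMSO replicate 3 and 0.14 in DMSO replicate 4. PBKi replicate 6 and DMSO replicate 3 were nearly level on this measure. The median over all genes tested stayed between -0.014 and 0.017 in every library, but TMM scaling holds it near 0, so it gives no contrast. The 24 genes were picked as called lower. How often PBKi replicate 3 was the lowest over all genes, or over all genes called lower, was not counted, so the pattern may not be particular to these genes. The median SD of the log2 level was 0.21 in DMSO and 0.16 in PBKi for the 35 genes, and 0.17 and 0.12 for all genes tested. Without PBKi replicate 3, 19 genes were called lower, and without both DMSO replicate 5 and PBKi replicate 3, 22 were. Replicates 1 to 3 alone gave 21 genes called lower, and replicates 4 to 6 alone also gave 21.

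**Figure D4:**
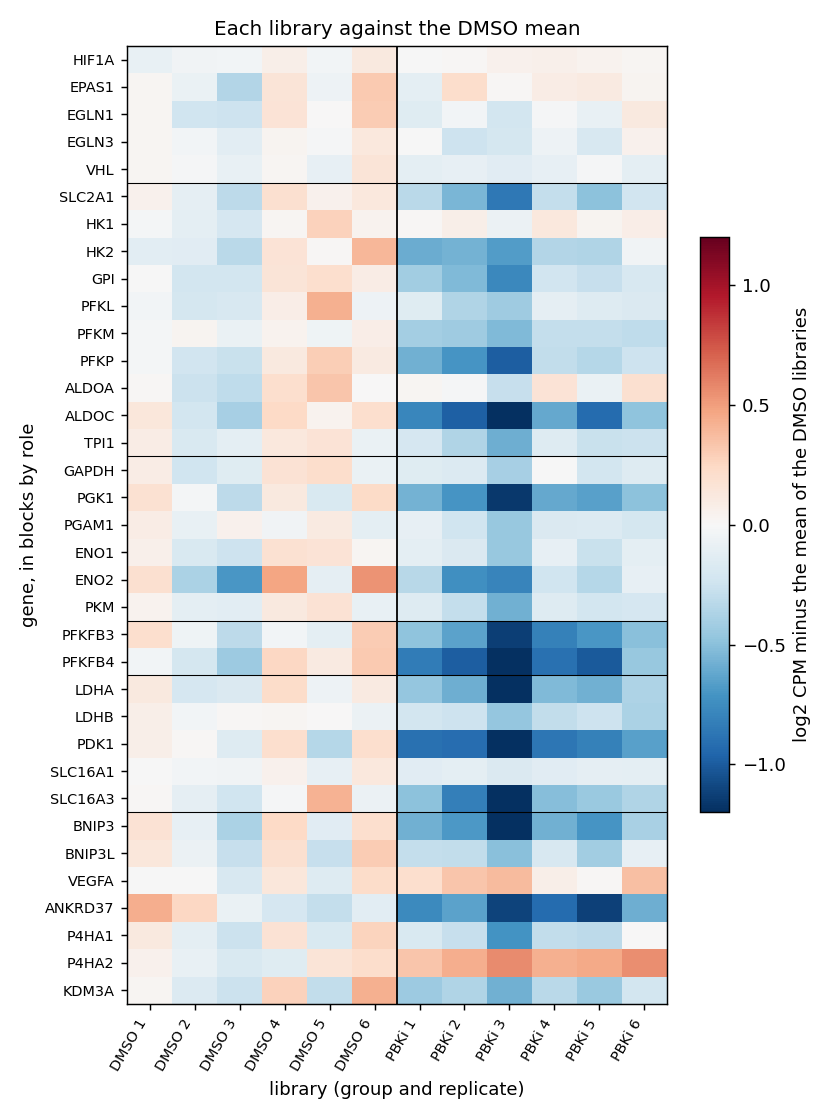
The log2 CPM of each library minus the mean of the DMSO libraries is shown as colour (blue lower, red higher, scale from -1.2 to 1.2, with values beyond it drawn at its ends) for the 35 tested genes (rows, in blocks by role) and 12 libraries (columns). The column of PBKi replicate 3 is the darkest blue, the top block of oxygen sensing genes stays pale, and P4HA2 is red in all 6 PBKi libraries.

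Genes of the same pathways outside the 39 were listed as well. Of 28 further genes of glycolysis and glucose transport, 19 were tested, 4 were lower and 8 were higher, with a median log2 fold change of -0.01. Over all genes tested, 21.5% were called lower and 20.1% higher, so the 4 lower were near the general share. The glucose transporters SLC2A3 (GLUT3, 0.392 to 1.52 CPM in DMSO and 0.212 to 0.829 CPM in PBKi) and SLC2A12 (16.8 to 8.79 CPM on average) fell by 1.39 and 0.93 on the log2 scale. SLC2A3 had only 5 to 26 reads per DMSO library and 4 to 12 per PBKi library, and its groups overlapped. Its log2 fold change was -0.92 in replicates 1 to 3 alone and -1.92 in replicates 4 to 6 alone, so its size is not firm. HKDC1, a hexokinase relative, had 0 to 2 reads per DMSO library and 13 to 25 per PBKi library, too few in DMSO for a firm fold. It reached 10 counts only in the PBKi libraries, so it was tested only because it was high there. Its place among the 8 called higher is therefore not support for a rise. ARRDC4, an arrestin that limits glucose uptake, rose by 0.68, from 16.6 to 26.8 CPM. The other 6 rises, between 0.21 and 0.36, were of the glucose transporter SLC2A6, the phosphoglucomutases PGM1 and PGM2, the phosphatases MINPP1 and TIGAR, and PFKFB2, and the other 2 falls were of the glucose transporter SLC2A4 and of BPGM, a mutase of the lower steps.

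Of 15 further genes of pyruvate use, 14 were tested, 9 were lower and 2 were higher, with a median of -0.23. For this list and the next, the shares over all genes tested were 21.5% lower and 20.1% higher. MPC2, a subunit of the mitochondrial pyruvate carrier, fell by 0.69 on the log2 scale, from 519.6 to 322.6 CPM, and the monocarboxylate transporter SLC16A7 by 0.37. The pyruvate dehydrogenase complex genes PDHA1 (-0.28), PDHB (-0.30), PDHX (-0.24), DLAT (-0.28) and DLD (-0.14) were all called lower, as were the kinases PDK2 (-0.28) and PDK3 (-0.22) that switch it off. The rises were of LDHD, a mitochondrial dehydrogenase of the other lactate stereoisomer, by 0.31, and of PDP1, the phosphatase that reactivates pyruvate dehydrogenase, by 0.17 (adjusted p = 0.0493, edgeR). Of 38 further genes of the HIF pathway or its response, 34 were tested, 16 were lower and 4 were higher, with a median of -0.13. PLOD2, a lysyl hydroxylase, fell by 1.17 on the log2 scale, with 17.7 to 46.0 CPM in DMSO and 5.21 to 19.8 CPM in PBKi, so the groups overlapped. LOX, a lysyl oxidase, fell by 1.08 without overlap, while the clock repressor BHLHE41 and the transferrin receptor TFRC rose by 0.79 and 0.65. Another lysyl hydroxylase, PLOD1, had -0.11 (adjusted p = 0.296, edgeR), and P4HB, the subunit that partners P4HA1 and P4HA2, rose by 0.25. The further members of these lists beyond the largest rises and falls are named here after their values were seen.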

How the data were processed

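RNA-seq of C4-2 cells comprised 6 DMSO and 6 PBKi libraries prepared with the TruSeq RNA kit, grouped by the labels. The authors aligned reads to GRCh37 with TopHat2 2.0.4, as the submitters' processing notes state, and deposited raw counts of reads per gene from HTSeq 0.5.3p9, without normalisation, in 47 lane files. Reads with several alignments were left out by the authors, and made up 26.7% to 29.3% of alignments. Counts were summed over lanes. The test took genes that reached 10 counts in 6 or more samples, with edgeR 4.0.16 (R 4.3.3), TMM factors, a quasi-likelihood fit without covariates and Benjamini-Hochberg adjustment at 0.05. Standard errors came from the log2 fold change and F. Depth was 9663203 to 28029908 reads on genes, so counting error matters mainly for genes of few reads such as ANKRD37.

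Family ratios used a prior count of 2. Symbols, exon lengths and coordinates came from GENCODE mapped to GRCh37, newer than the annotation of the authors. Promoter windows came from RefSeq. HIF1A, EPAS1 and genes called with a log2 change of at least 0.5 were given in full. The genes, lists and tests were chosen with earlier results of these data known. The model was tested on simulated counts. Alternatives were DESeq2 1.42.0, limma-voom (limma 3.58.1), RLE factors, other filters and thresholds, lanes 6 to 8 only, replicate subsets, a replicate block and leaving out each sample. The siPBK arm was not analysed here.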

Additional observations from a re-analysis of the deposited data

Results flagged for a closer look

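In 94 groups of 6 libraries (gene levels and family ratios), the highest or lowest library stood apart by Dixon's test in 7, and chance flags about 5% of groups. PBKi replicate 3 was the lowest library for LDHA (587.5 CPM, the next 940.1), for PKM (1162 CPM, the next 1416), and for the log2 ratios of BNIP3 to BNIP3L (-0.59, the next -0.25) and P4HA1 to P4HA2 (1.16, the next 1.68). The same library had 9.30% of unique reads outside genes, the highest share of the 12, and the part of that in these values was not tested. DMSO replicate 5, the library with 3 lanes, was the highest for SLC16A3 (129.1 CPM, the next 97.55) and for the log2 ratio of SLC16A3 to SLC16A1 (-1.07, the next -1.57). PBKi replicate 5 was the highest PBKi library for VHL (125.5 CPM, the next 118.6).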

How the results depend on the processing

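The number of genes called lower, 24, was 19 to 26 without a single sample and 19 to 26 under every other alternative, the lowest of these at an adjusted p under 0.01. The number called higher, 2, was 1 without VEGFA at an adjusted p under 0.01, in replicates 4 to 6 alone and without both DMSO replicate 5 and PBKi replicate 3, and 1 to 2 without a single sample. Of the calls, 18 of the 24 lower, 1 of the 2 higher (P4HA2) and 7 of the 9 that did not pass kept their side of the threshold under every alternative. No direction of a called gene reversed. Medians without a single sample were -0.35 to -0.26 for the 35 genes, -0.44 to -0.33 for glycolysis and -0.13 to -0.06 for oxygen sensing and HIF-responsive genes, the last without DMSO replicate 6.

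With the replicate number as a block, 26 genes were lower and 2 higher. The log2 fold change of GAPDH was then -0.18 (adjusted p = 0.0144, edgeR) and the log2 fold change of ENO2 was -0.44 (adjusted p = 0.00105, edgeR), and these were the calls added. Same-numbered libraries deviated together with correlations of 0.089 (replicate 5) to 0.30. As 1 of the 6 was under 0.1 and the labels name no shared source, the numbers were not taken as pairs, although 4 of 6 DMSO and 4 of 6 PBKi libraries correlated best with their own number, a hint from the data that they may share one. The 7 family ratios were 6 to 8 without a single sample and 7 with a prior count of 0.5. With sign changes of paired differences under the block, 0 ratios passed. The smallest exact p of that test is 0.0312, so ratios could pass the adjustment only if most pairs reached it together. Ratios within replicates 1 to 3 or 4 to 6 alone were not run. Low reads limit CA9, ADM, ANGPTL4, HKDC1 and SLC2A3, and pseudogenes limit GAPDH and BNIP3.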
